A study of Mus musculus with 6 samples.

Results

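The muscle RING finger (MuRF) proteins and the other atrophy ubiquitin ligases are described here in hearts of mice that lack miR-1-2, one of the genes that make the muscle microRNA miR-1. The members were all probe sets whose platform gene symbol was Trim54, Trim55, Trim63, Fbxo32, Fbxo40, Nedd4 or Stub1. This gave 10 of 45037 probe sets: 1 each for Trim54 and Trim63, 3 for Fbxo32, 3 for Nedd4 and 2 for Stub1. No probe set was named Trim55 or Fbxo40, so 5 of the 7 genes have values and these 2 were not analysed here. Trim54 was chosen by its lower level in these knockout hearts, so its difference between the genotypes is given as a description, with no test.

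The hearts came from 3 miR-1-2 knockout mice and 3 wild-type mice, all at postnatal day 10. The total RNA of each heart was hybridised to 1 Affymetrix array, and no treatment is given. The labels name neither the strain, nor how the allele was made, nor whether the knockout is confined to some cells. Because the microRNA itself was not measured here, nothing in these values checks the genotype of a heart directly. All values are log2 expression values from RMA (robust multi-array average), on which a difference of 1 is a factor of 2. Levels are compared for each probe set between arrays and never between genes.

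A ubiquitin ligase carries ubiquitin from a conjugating (E2) enzyme to a chosen protein, and a chain of ubiquitin marks that protein for the proteasome. Striated muscle has ligases of its own, which turn over sarcomere proteins and drive the loss of muscle mass in atrophy. Trim63 (MuRF1), Trim55 (MuRF2) and Trim54 (MuRF3) form 1 family with a RING finger and a B-box. MuRF1 and MuRF2 bind titin at the M-band, and MuRF3 associates with microtubules and the Z-disc. Fbxo32 (atrogin-1) and Fbxo40 are F-box proteins, the substrate-choosing part of the SCF (Skp1, Cul1, F-box) ligase complex. Nedd4 is a HECT-type ligase, and Stub1 (CHIP) is a U-box ligase that works with the chaperones Hsp70 and Hsp90.

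The promoters of both measured MuRF genes are shown because Trim54 differed between the genotypes and Trim63 did not pass the test. They are the 250 bases before the annotated transcription start, from RefSeq on GRCm38.p6, both on the plus strand. The Trim54 stretch is chr5:31116362-31116611 and the Trim63 stretch is chr4:134314870-134315119. Capitals mark a FoxO core (GTAAACA) or a glucocorticoid receptor half-site (AGAACA), searched on both strands, so the matches can also read TGTTTAC and TGTTCT.
Trim54: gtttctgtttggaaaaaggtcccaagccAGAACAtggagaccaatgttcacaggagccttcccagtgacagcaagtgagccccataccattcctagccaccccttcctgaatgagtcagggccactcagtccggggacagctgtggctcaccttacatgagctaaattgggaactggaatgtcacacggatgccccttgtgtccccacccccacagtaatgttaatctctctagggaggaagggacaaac
Trim63: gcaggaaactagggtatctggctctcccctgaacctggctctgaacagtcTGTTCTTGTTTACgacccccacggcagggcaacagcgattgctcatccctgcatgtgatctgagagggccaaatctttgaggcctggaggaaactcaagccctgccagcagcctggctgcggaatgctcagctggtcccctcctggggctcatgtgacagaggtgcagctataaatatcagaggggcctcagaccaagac

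In the Trim63 stretch the half-site lies 200 to 195 bases before the start and the FoxO core follows it directly, at 194 to 188. FoxO factors and the glucocorticoid receptor are known activators of Trim63 in atrophy. The Trim54 stretch holds 1 half-site, 222 to 217 bases before the start, and no FoxO core. Of 32851 promoter stretches of this length, 3.17% hold a FoxO core and 16.1% a half-site on either strand. The E-box CANNTG, the site of muscle basic helix-loop-helix factors, occurs 2 times in the Trim54 stretch and 3 times in the Trim63 stretch, and in 66.2% of all stretches. A match is only a match of letters.

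Sex and tissue content of the hearts varied beside the genotype. Knockout replicates 1 and 3 had low Xist (7.55 and 7.57) and high Eif2s3y, a Y-linked gene (7.63 and 8.35). Knockout replicate 2 and all 3 wild-type arrays had Xist between 11.9 and 12.2. Sex was thus unbalanced between the groups. The brown fat uncoupling protein Ucp1 reached 10.39 in knockout replicate 1 and 9.45 in wild-type replicate 1, against 5.22 to 6.68 on the other arrays. The heart label held: the 11 cardiomyocyte markers averaged between 13.11 and 13.19 in knockout and between 13.09 and 13.17 in wild type, near the top of the scale.

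Trim54 was lower in every knockout heart than in any wild-type heart. It stood at 5.85, 6.29 and 6.30 in knockout replicates 1, 2 and 3, against 7.21, 7.04 and 7.09 in wild-type replicates 1, 2 and 3. The groups did not overlap, as for 8.7% of all probe sets, and Trim54 was chosen by this same difference. The highest knockout heart lay 0.74 log2 units below the lowest wild-type heart. Values spanned 0.45 within knockout and 0.17 within wild type. The means were 6.15 ± 0.26 in knockout and 7.12 ± 0.09 in wild type (SD, n = 3 each), a difference of -0.97, or 1.96-fold lower in knockout. With all 45037 probe sets ordered by difference, it had rank 8 from the lowest, between a Kcnj3 probe set (-1.04) and an Sln probe set (-0.91), whose groups both overlapped. The next probe sets out had groups that did not overlap: Hamp (-1.08) and Arhgap20 (-1.11) on 1 side, Kcnd2 (-0.87) and Fgf14 (-0.86) on the other.

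Knockout replicate 1 was the lowest heart for Trim54 and wild-type replicate 1 the highest. The differences between arrays of the same replicate number were -1.36, -0.75 and -0.79. Both first replicates carried the high Ucp1 level, and with both left out the difference was -0.77. Knockout replicate 2, which shared the high Xist of the wild-type hearts, stood at 6.29, against 7.04 to 7.21 in wild type. With Xist as a covariate in the fit the Trim54 difference was -0.83. The part of sex in the Trim54 difference was not tested. With each array left out in turn the difference stayed between -1.04 and -0.82. Only 1 probe set stands for Trim54, so no second probe set could be set beside it. Its knockout values lie near the array medians of 6.03 to 6.11, with replicate 1 below all of them, and RMA compresses differences towards the bottom of the scale.

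**Figure D1:**
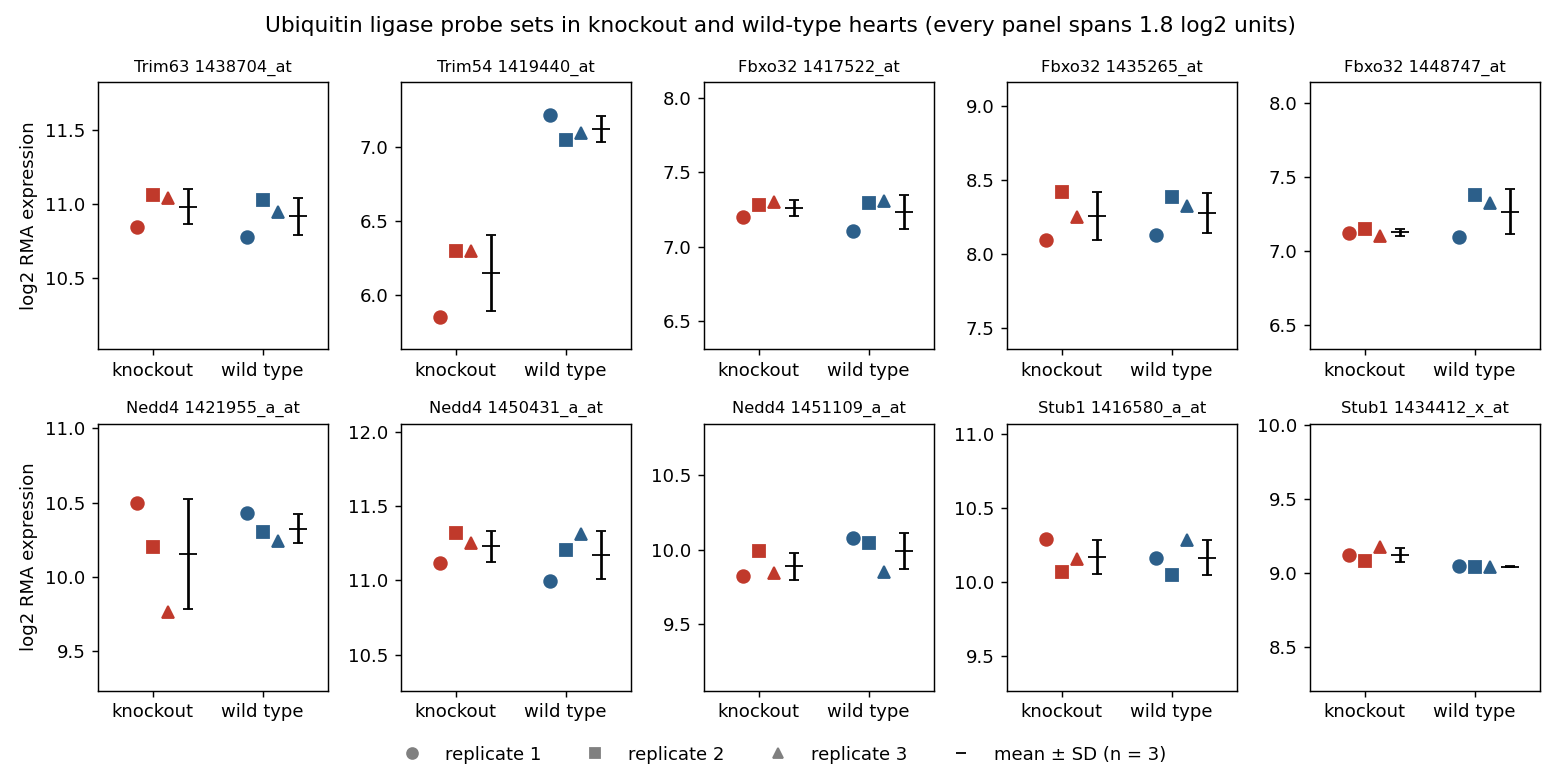
Log2 RMA expression (y axis) of the 10 probe sets in knockout (red, left) and wild-type (blue, right) hearts, a symbol per replicate number, with mean ± SD (n = 3) in black; every panel spans the same log2 range. Trim54 is the panel with a wide gap, 5.85 to 6.30 in knockout against 7.04 to 7.21 in wild type, and all other panels except Stub1 1434412_x_at show overlapping groups.

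Trim63, the MuRF ligase best known from muscle atrophy, did not differ beyond the spread of the arrays. It stood at 10.85, 11.06 and 11.04 in knockout replicates 1, 2 and 3, against 10.78, 11.03 and 10.95 in wild-type replicates 1, 2 and 3. The groups overlapped, and replicate 1 was the lowest heart of both. The means were 10.98 ± 0.12 in knockout and 10.92 ± 0.13 in wild type (SD, n = 3 each). The difference of 0.07 had a 95% interval of -0.14 to 0.28 in limma's fit over all probe sets (adjusted p = 1.00), so it ran from 0.905-fold to 1.21-fold. Neither bound reaches the size of the Trim54 difference, but Trim54 was chosen by its fall, so this is a description only.

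Fbxo32, the F-box protein atrogin-1, was measured by 3 probe sets that overlapped between the groups and did not pass. The probe set 1435265_at stood at 8.10, 8.42 and 8.25 in knockout against 8.13, 8.39 and 8.33 in wild type, a difference of -0.02 (95% interval -0.26 to 0.21). The probe set 1417522_at stood at 7.20, 7.28 and 7.30 in knockout against 7.10, 7.29 and 7.31 in wild type, a difference of 0.03 (-0.16 to 0.21). In both of these, replicate 1 was the lowest heart of each group. The probe set 1448747_at was the one that leaned lower, at 7.13, 7.15 and 7.10 in knockout against 7.10, 7.38 and 7.32 in wild type, a difference of -0.14 (-0.34 to 0.06). There, wild-type replicate 1 lay as low as the knockout hearts, and the same-number differences were 0.03, -0.23 and -0.22.

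Nedd4, which acts on membrane channels and growth factor signalling, had 3 probe sets that went different ways, and none passed. The probe set 1421955_a_at stood at 10.50, 10.20 and 9.77 in knockout against 10.43, 10.30 and 10.24 in wild type, a difference of -0.17 (95% interval -0.53 to 0.19). That difference rested on knockout replicate 3, without which it was 0.03. The probe set 1450431_a_at stood at 11.12, 11.32 and 11.25 in knockout against 10.99, 11.20 and 11.32 in wild type (difference 0.06, interval -0.17 to 0.28). The probe set 1451109_a_at stood at 9.82, 9.99 and 9.84 in knockout against 10.07, 10.05 and 9.85 in wild type (difference -0.10, interval -0.30 to 0.10). The suffix _a marks probe sets that match several transcripts of 1 gene, and which Nedd4 transcripts each one reads is not given in the sources used here.

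Stub1, the chaperone-linked ligase CHIP, had 2 probe sets with small differences that did not pass. The probe set 1416580_a_at stood at 10.29, 10.07 and 10.15 in knockout against 10.16, 10.04 and 10.28 in wild type, a difference of 0.01 (95% interval -0.20 to 0.21). The probe set 1434412_x_at stood at 9.12, 9.08 and 9.17 in knockout against 9.05, 9.04 and 9.04 in wild type. These groups did not overlap, but the difference was 0.08 (interval -0.08 to 0.24) and did not pass. Over all probe sets 8.7% had groups that did not overlap, so 1 of 9 here is near that background. The suffix _x marks a probe set with probes shared with other sequences, which makes this value less certain.

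Of the 9 probe sets of Trim63, Fbxo32, Nedd4 and Stub1, 5 were higher and 4 lower in knockout, with a median difference of 0.01 against -0.01 over all probe sets. With limma, 0 of the 9 passed an adjusted p of 0.05, and 0 had an unadjusted p under 0.05. Over all 45037 probe sets 0.00666% passed and 3.94% had an unadjusted p under 0.05, so few calls could have been made in any group of genes. With the replicate number as a block 0 of the 9 passed as well, against 0.0444% of all probe sets, and their smallest adjusted p was 0.848. The 95% intervals of the 9 ran from -0.53 at the lowest to 0.28 at the highest. The Trim54 difference lay outside each of these intervals. Trim54 was chosen by that fall, so this describes the width of the intervals and is no test against Trim54. Differences inside an interval could not be told from 0 with 3 arrays per group.

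**Figure D2:**
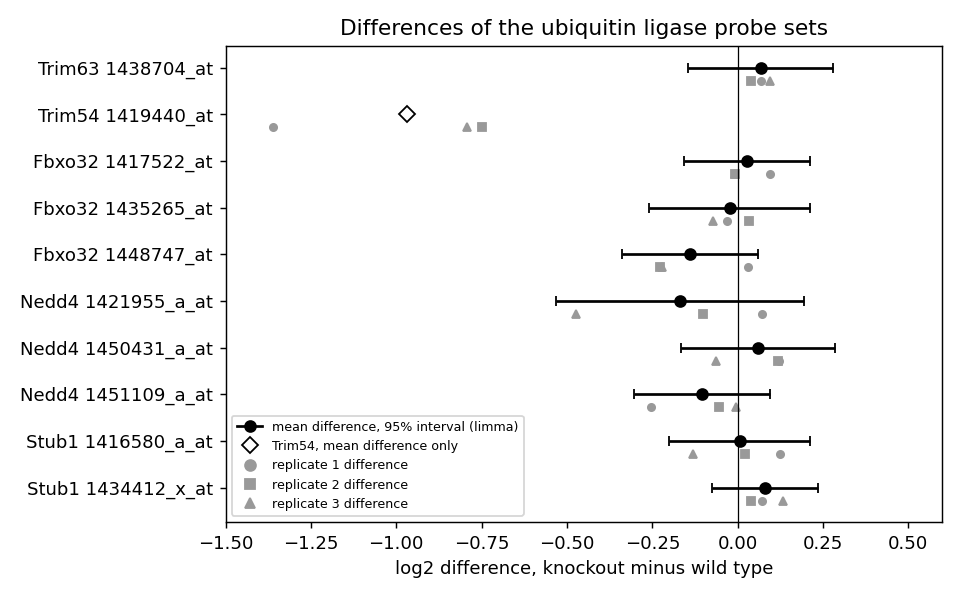
Log2 difference, knockout minus wild type (x axis), of each probe set (rows): black points with bars give the mean difference and its 95% interval from limma, grey symbols the difference for each replicate number, and the open diamond the Trim54 mean with no interval. The intervals of the 9 tested probe sets all include 0 and stay above -0.54, while the Trim54 values lie between -1.36 and -0.75.

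Replicate 1 was the lowest or the highest heart of both genotypes in some of the member probe sets. Probe sets of the same gene are not independent, so the shares are given as a description. In 4 of the 9 probe sets (44.4%) replicate 1 was the lowest heart of both groups, as for Trim63, for Fbxo32 at 2 probe sets and for Nedd4 1450431_a_at, against 19.1% of all probe sets. In 1 of the 9, Nedd4 1421955_a_at, replicate 1 was the highest of both groups, against 23% of all. The mean of the brown fat list went with this split. Its 7 measured markers of 10 averaged 8.997 in knockout replicate 1 and 8.69 in wild-type replicate 1, against 7.55 to 7.78 on the other arrays. Ucp1, Adipoq and Cidea were highest in replicate 1 of both groups, while Fabp4, Dio2, Ppargc1b and Elovl3 were not. The thymus and lymphoid list was also highest there, at 5.77 in knockout replicate 1 and 6.12 in wild-type replicate 1, against 5.48 to 5.68 elsewhere. Rag1, Cd3e and Cd3g were highest in replicate 1 of both groups, while Cd79a, Cd8a and Ptcra were not. The part of brown fat or thymus in the levels of the ligases was not tested.

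Markers of other cell types were set beside the Trim54 difference, since fewer cells of a type and less RNA per cell cannot be told apart in whole hearts. The 14 skeletal muscle markers, all measured, averaged between 5.69 and 5.76 in knockout and between 5.69 and 5.80 in wild type, and 0 of the 14 had groups that did not overlap, against 8.86% of all genes. Their levels were uneven. The myogenic factors Myog and Myf6 lay between 4.43 and 4.71 on every array, in the lower part of the scale. Casq1, the brightest of the 14, stood at 8.74, 8.51 and 8.51 in knockout against 9.15, 8.60 and 8.50 in wild type. Its highest heart was wild-type replicate 1, as for Trim54. Atp2a1, Tnni2 and Myh2 lay above 7 on every array. The 7 myeloid markers were all lower in knockout, averaging between 7.33 and 7.498 in knockout and between 7.56 and 7.81 in wild type, and in 5 of the 7 the groups did not overlap. The 5 atrial markers were also all lower, between 9.86 and 11.32 in knockout and between 10.81 and 11.48 in wild type, and overlapped as a list. The part of the skeletal muscle, myeloid and atrial markers in the Trim54 difference was not tested. Fibroblast, endothelial, thymus and lymphoid, blood and smooth muscle lists overlapped between the groups as list means. In 1 of the 4 smooth muscle markers, Acta2, the groups did not overlap, at 13.12 to 13.23 in knockout against 12.63 to 12.89 in wild type.

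The genes with the profile most like that of Trim54 included muscle genes. Likeness was the root mean square distance between log2 profiles over the 6 arrays, after each gene's own mean was taken off, among 12108 other genes with a mean of at least 6. The 5 nearest were Snhg14 (distance 0.25), Klhl41 (0.26), Acta1 (0.28), Asb5 (0.29) and Hamp (0.30). Since all 6 arrays enter the distance, a low value in knockout is part of the likeness, and it is given as a description. Among the ligases Fbxo32 came nearest, at 0.50 and rank 3349.

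Klhl41, a Kelch protein of the sarcomere that works with the Cul3 ligase, stood at 8.46, 8.91 and 8.83 in knockout against 9.26, 9.14 and 9.13 in wild type. Acta1, skeletal actin, stood at 10.13, 10.22 and 10.23 in knockout against 11.06, 10.62 and 10.47 in wild type. Asb5, a SOCS-box substrate adaptor of ubiquitin ligases, stood at 7.23, 7.20 and 6.92 in knockout against 8.30, 7.82 and 7.58 in wild type. Wild-type replicate 1 was the highest heart for all 3 of these genes, as it was for Trim54. Snhg14, a long non-coding RNA that hosts small nucleolar RNAs, averaged 6.15 ± 0.26 in knockout and 6.62 ± 0.10 in wild type (SD, n = 3 each). Its difference of -0.47 was smaller than that of Trim54, and Hamp, the iron hormone hepcidin, differed by -0.80.

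**Figure D3:**
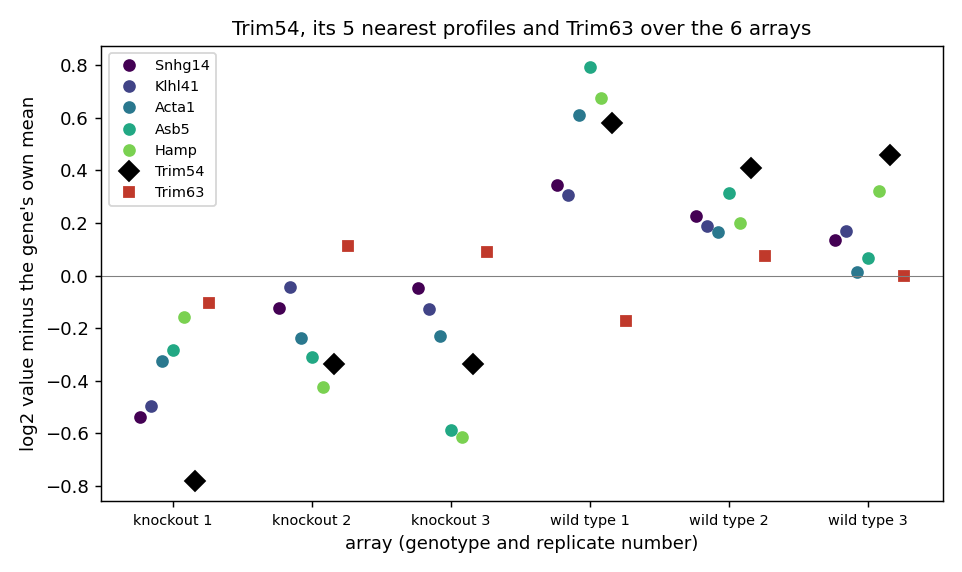
Log2 value minus the gene's own mean over the 6 arrays (y axis) for each array (x axis, genotype and replicate number), for Trim54 (black diamonds), its 5 nearest genes (circles) and Trim63 (red squares). Trim54 and the nearest genes lie below 0 on all knockout arrays and above 0 on all wild-type arrays, while Trim63 stays near 0 with its lowest value in wild-type replicate 1.

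The rest of the ubiquitin and atrophy machinery was described with 11 lists of 221 different genes, of which 200 were measured. Of these 200 genes, 109 were higher and 91 lower in knockout, with a median difference of 0.01 against 0.00 over all 18193 genes. With limma 0 of the 200 passed over all genes, where the share over all genes was also 0.0%. A list with 0 passing is thus no result about its genes. At an unadjusted p under 0.05 there were 6 higher and 10 lower among the 200, against 2.19% of all genes higher and 1.91% lower, or 4.1% in either direction. With the replicate number as a block 1 of the 200 passed, against 0.0715% of all genes: Myh7, the slow myosin heavy chain, which was higher (adjusted p = 0.0261). As pairs, only the arrays of replicate 1 have a basis in the data, so that block is uncertain for replicates 2 and 3.

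Among 28 measured ligases with other roles in muscle, 18 were higher and 10 lower (median 0.03), and 0 passed, as among all genes. At an unadjusted p under 0.05, 1 was higher and 3 were lower, against 2.19% and 1.91% of all genes. All of these were named after their values were seen. The higher one was the F-box protein Fbxo21 (0.29 ± 0.10, SE). The lower ones were Klhl41 (-0.44 ± 0.12, SE), its relative Klhl40 (-0.23 ± 0.08), which stabilises thin filament proteins, and Fbxw7 (-0.24 ± 0.08), an F-box protein that targets cyclin E and Myc. Klhl40 stood at 6.49, 6.62 and 6.67 in knockout against 6.76, 6.80 and 6.92 in wild type, and its groups did not overlap. The other Fbxw7 probe set differed by -0.62. Trim72, a TRIM protein of membrane repair, differed by -0.12 near the bottom of the scale, and Trim32, a ligase mutated in limb-girdle muscular dystrophy, by 0.16.

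The partners that Fbxo32 needs in its complex did not pass the test, which 0.0% of all genes passed. Skp1, the adaptor that holds the F-box protein, averaged 11.22 ± 0.03 in knockout and 11.18 ± 0.09 in wild type (SD, n = 3 each). The scaffold Cul1 differed by 0.04 and the RING subunit Rbx1 by -0.08. Of the 12 SCF genes 6 were higher and 6 lower, and 0 had an unadjusted p under 0.05, against 4.1% of all genes. The extreme one was Cand1, which exchanges F-box proteins on Cul1, at 0.29, and its dimmer probe sets differed by -0.03, 0.10 and -0.03.

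Ubiquitin genes and the enzymes before the ligases were lower in 12 and higher in 5 of 17 measured (median -0.01). None passed, as among all genes. Ube2v2, a partner of the E2 enzyme Ube2n, differed by -0.34 at 7.17 ± 0.25 in knockout and 7.51 ± 0.08 in wild type (SD, n = 3 each), and its dimmer probe sets differed by 0.15, 0.08 and -0.12. The 32 proteasome core and 19S genes lay within -0.07 to 0.19, with 15 higher and 17 lower. Psmd8, a lid subunit, was at the top of that range, at 10.28, 10.41 and 10.36 in knockout against 10.13, 10.15 and 10.20 in wild type. All 6 measured genes of the immunoproteasome and activators were higher, by 0.11 or less. An unadjusted p under 0.05 was found for 0 of them, against 4.1% of all genes.

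None of the known regulators of atrophy genes passed the test, which 0.0% of all genes passed. Foxo1, a FoxO factor that activates Trim63 and Fbxo32, stood at 8.17, 8.21 and 8.07 in knockout against 8.18, 8.17 and 8.18 in wild type. Foxo3 stood at 8.85, 8.82 and 8.69 in knockout against 8.87, 8.66 and 8.95 in wild type, and the groups of both genes overlapped at these brightest probe sets. At the next Foxo3 probe set by level the groups did not overlap, with a difference of -0.08. Klf15, a glucocorticoid-induced factor upstream of both ligases, was at 6.45, 6.48 and 7.07 in knockout against 6.53, 6.48 and 6.68 in wild type. Of 28 regulators 18 were higher and 10 lower (median 0.04), and 0 passed. Ddit4, an inhibitor of mTOR signalling, had the smallest p of the list, with a difference of 0.18 ± 0.08 (SE).

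Other genes of the FoxO atrophy programme went both ways, 9 higher and 8 lower of 17, and 0 passed, as among all genes. Mt1, a metallothionein, stood at 10.12, 10.34 and 10.52 in knockout against 9.68, 9.98 and 9.90 in wild type. Bnip3, a mitophagy receptor, differed by 0.17 and Pdk4, a kinase of pyruvate dehydrogenase, by -0.72. These 3 genes were named for having the smallest p of the list, and their groups did not overlap at their brightest probe sets. Among all 17 genes, groups did not overlap for 2 that were higher and 2 that were lower, against 8.86% of all genes. A dimmer Mt1 probe set with overlapping groups differed by 0.21.

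Reported substrates and partners of the MuRF proteins were 12 higher and 11 lower of 23 (median 0.00). Titin (Ttn), the giant protein that MuRF1 and MuRF2 bind, averaged 13.29 ± 0.05 in knockout and 13.26 ± 0.06 in wild type (SD, n = 3 each), near the top of the scale where a difference may not show, and its other probe sets differed by between -0.30 and 0.13. Mybpc2, the fast skeletal myosin-binding protein C, stood at 7.43, 7.42 and 7.52 in knockout against 7.76, 7.93 and 7.82 in wild type, with an adjusted p of 0.721 in limma's fit. Myh7 was at 9.41, 10.91 and 11.59 in knockout against 8.18, 9.53 and 9.47 in wild type. Its groups overlapped, and it passed with the replicate number as a block but not without it. That block has a basis in the data only for replicate 1. The 12 reported substrates of atrogin-1 and Fbxo40 split 6 and 6, and Irs1, the insulin receptor substrate that Fbxo40 targets, differed by 0.19.

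The chaperone partners of CHIP were 9 higher and 7 lower of 16, and 0 passed, as among all genes. Hspa8, the constitutive Hsp70 that CHIP binds, averaged 12.06 ± 0.10 in knockout and 12.04 ± 0.06 in wild type (SD, n = 3 each). Hspb8 (-0.23 ± 0.09, SE) and Bag2 (-0.19 ± 0.08, SE), an inhibitor of CHIP, had the smallest p of that list. Of 15 deubiquitinases 7 were higher and 8 lower. Atxn3, which trims ubiquitin chains and binds CHIP, differed by -0.21, and its dimmer probe set by 0.10.

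**Figure D4:**
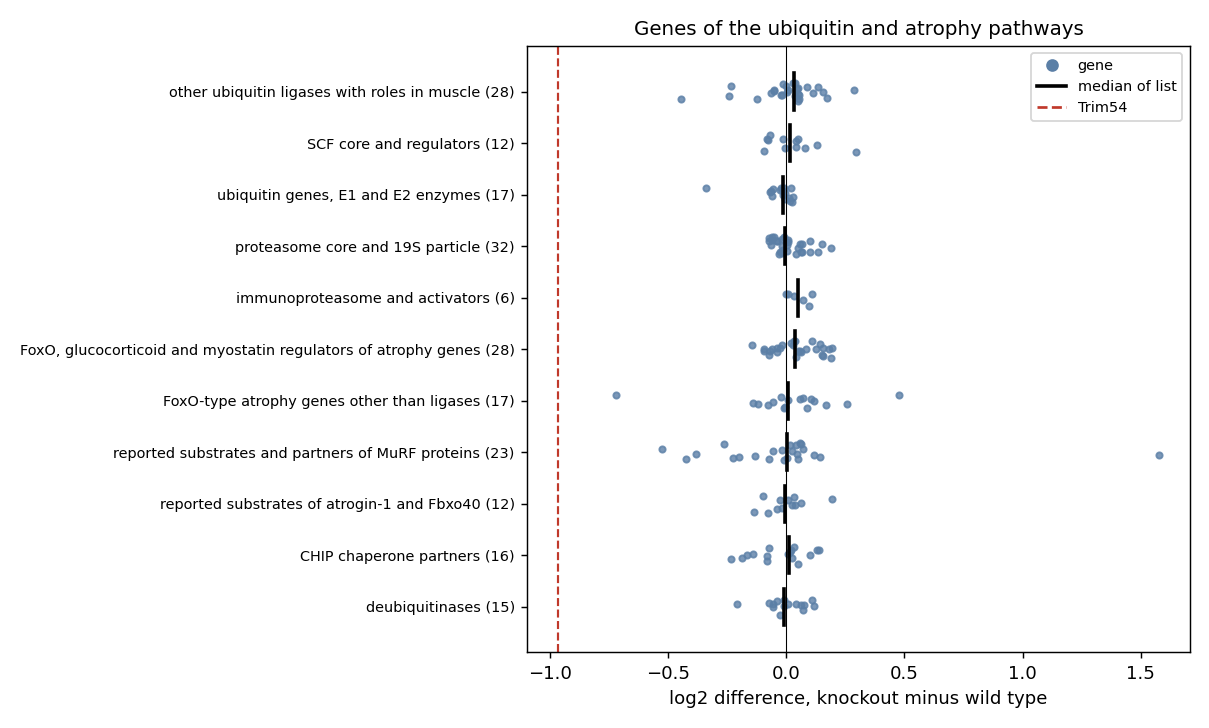
Log2 difference, knockout minus wild type (x axis), of every measured gene in 11 lists (rows, number of genes in brackets), with the list median as a black bar and Trim54 as a dashed red line. All list medians lie between -0.01 and 0.05, and no listed gene was as low as Trim54; Myh7 (1.58) and Pdk4 (-0.72) are the extremes.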

How the data were processed

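Heart RNA was isolated with Trizol and given a biotin label during a single round of amplification, per the labels' protocols. The deposited log2 values are RMA values that the authors made with the affy package, per the series' design text, and GCOS 1.4 is named in the submitters' processing notes. RMA subtracts background, gives every array the same distribution and merges the probes of each set, so a shift shared by most genes is removed and small values are compressed. Values lay between 2.64 and 14.6, and arrays carry no read depth: the number of arrays limits the precision.

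The 64 control probe sets were left out. The platform annotation named 1 gene for 34945 probe sets, several for 932 and none for 9160. Genes of the lists are represented by their brightest probe set (18193 genes), with symbols updated through RefSeq on GRCm38.p6 (18031 matched by gene identifier). Knockout minus wild type was fitted over the whole table, using lmFit and eBayes of limma 3.58.1 (R 4.3.3), with Benjamini-Hochberg adjustment and a threshold of 0.05. Members, lists and markers were chosen with earlier results of these data known.

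Replicate numbers in the titles were checked as pairs: deviations of same-numbered arrays correlated at 0.54, 0.18 and 0.13 across genes, all above the minimum of 0.1, and the numbers were used as a block in a second fit. The crossed pairs of replicates 2 and 3 correlated at 0.35 and 0.30, so only replicate 1 has a basis in the data. Named genes are all member probe sets, up to 3 genes per list with the smallest p, a fixed set of partners, and the 5 nearest to Trim54. The fit was tested on simulated data with known changes.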

Additional observations from a re-analysis of the deposited data

How the results depend on the processing

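The count of 0 called among the 9 probe sets of Trim63, Fbxo32, Nedd4 and Stub1 held in all alternatives, and their smallest adjusted p in any was 0.166. The Trim54 difference kept its direction in all, from -1.04 to -0.82 with 1 array left out. Of 135 alternative values of the 9 probe sets, 119 kept their direction and 16 turned it, all without passing. Some of these values could not turn. The replicate block, the mean of at least 5 and the trend and robust options leave each difference as it was. Leaving out both first arrays gives the same difference with and without the block, and it is counted both times. With both first arrays left out, with and without the replicate block, Fbxo32 1417522_at was -0.0082 and Stub1 1416580_a_at -0.054. Stub1 1416580_a_at was -0.032 with a further quantile normalization, -0.0082 with array weights and -0.094 with the Xist covariate, where Fbxo32 1435265_at was 0.14. With 1 array left out, ranges that crossed 0 were -0.0022 to 0.14 for Trim63, -0.039 to 0.064 for Fbxo32 1417522_at, -0.105 to 0.055 for Fbxo32 1435265_at, -0.34 to 0.027 for Nedd4 1421955_a_at, -0.029 to 0.13 for Nedd4 1450431_a_at and -0.054 to 0.065 for Stub1 1416580_a_at.

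Of all probe sets, 3 passed. The count was 20 with the replicate block, 0 with a mean of at least 5, 6 when the variance was fitted with trend and robust options, 24 with array weights, 0 with the Xist covariate, and 1 to 15 with 1 array left out (15 without knockout replicate 2, where sex and genotype coincide, 6 without knockout replicate 1, and 1 without each wild-type array). Of all genes 0 passed, against 13 with the replicate block, 11 with the replicate block and both first arrays left out, 1 with both first arrays left out, 416 with array weights, and 0 to 4 with 1 array left out. Of the 200 listed genes 0 passed, against 1 with the replicate block, 1 with it and both first arrays left out, and 9 with array weights. The replicate block changed no call of the 9 probe sets. The causes were not tested.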
